A study of Mus musculus with 6 samples.

Results

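Toll-like receptors are membrane proteins that recognise conserved microbial molecules, and the set described here is 10 mouse genes, Tlr1 to Tlr9 and Tlr13, picked by symbol from the 36528 Entrez gene identifiers of the count files. The study measured polyadenylated RNA of cultured mouse microglia, which are the macrophages that live in brain tissue. It held 3 groups of 2 libraries each. The groups were untreated wild-type cells, untreated cells labelled Loxp and as Cop1 KO, and wild-type cells given LPS, a bacterial cell-wall glycolipid. COP1 is a ubiquitin ligase, and the comparison asks how its loss and an inflammatory stimulus change microglial RNA. The labels give no LPS dose or duration, no strain or age, no Cre driver or clone for the knockout, and no statement that the libraries of a group came from separate cultures or animals. The p-values below thus measure only the spread between these libraries, which may be technical.

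TLR1, TLR2, TLR4, TLR5 and TLR6 work at the cell surface and bind bacterial lipids, lipoproteins or flagellin, while TLR3, TLR7, TLR8, TLR9 and TLR13 sit in endosomes and bind nucleic acids. All of them except TLR3 signal through the adaptor MYD88. TLR3 uses the adaptor TRIF, encoded by Ticam1, and TLR4 uses both. In macrophages and microglia these receptors lead to NF-kB and interferon regulatory factor activation, and LPS itself is sensed by TLR4 together with its partner MD-2, encoded by Ly96.

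Library totals ran from 20568144 to 22553708 counts. Between the libraries of a group, no tested member differed by more than 1.16-fold. Cop1 itself stood at 12.7 and 11.5 CPM (counts per library size after TMM normalisation) in untreated wild type, at 8.05 and 9.22 in Cop1 KO and at 23.4 and 27.1 with LPS. The Cop1 difference between knockout and wild type (log2 fold change −0.49, SE 0.11, edgeR adjusted p = 0.00016) did not pass in limma on the deposited normalised RPKM (adjusted p = 0.075 and 0.057 with pseudocounts of 1 and 0.1). Whether the counted exons lie outside the deleted part was not tested, nor was any other source of the remaining Cop1 counts. All 14 microglia and macrophage markers had counts in each group. Their summed level was 10306 and 10320 CPM in untreated wild type, 15437 and 15509 in Cop1 KO and 8893 and 8968 with LPS. Summed astrocyte markers were at 787 and 789 CPM in untreated wild type, 877 and 882 with LPS, but 51.1 and 55.7 in Cop1 KO. Neuron markers summed to 77.3 and 79.1, 69.9 and 70.6, and 4.41 and 5.69 CPM in the same order. In bulk RNA, fewer cells of a type and less RNA per cell cannot be told apart.

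Of the 10 genes, 9 had enough counts to be tested. Tlr5 had 3 and 4 counts in untreated wild type, 1 and 2 in Cop1 KO and 0 in both LPS libraries, where 0 counts allows a level of up to 0.168 and 0.181 CPM (3 counts per library; counting error only). Its ratio of knockout to wild type was 0.497, with a 95% counting interval of 0.0829 to 2.18. Library by library, the level that 0 counts allows with LPS is not below that of untreated wild type (0.119 and 0.149 CPM). Pooled over the group, LPS had 0 counts against 7. With 3 counts in place of the 0, LPS would be 1.55-fold lower. That value takes the 7 counts as exact, so it is not a bound and shows no difference. At this depth no difference of this flagellin receptor gene was called.

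The 250 bases before and 50 bases after an annotated start were available from RefSeq (build GRCm38.p6) for 8 of the 10 genes, not for Tlr4 and Tlr7. They were searched on both strands for the NF-kB motif, the interferon-stimulated response element (ISRE), the AP-1 motif TGANTCA, the PU.1 motif GAGGAA and a C/EBP motif TTGCNNAA. PU.1 is a lineage transcription factor of macrophages and microglia, and C/EBP beta is a COP1 substrate. Shown are the genes with the largest change in the knockout (Tlr2) and with LPS (Tlr3), the Tlr6 start with ISRE matches, and the 2 decreased genes with an entry (Tlr8 and Tlr13), 5′ to 3′ on the strand of the gene, with motif matches in capitals.
Tlr2 (chr3:83841559-83841858, minus strand): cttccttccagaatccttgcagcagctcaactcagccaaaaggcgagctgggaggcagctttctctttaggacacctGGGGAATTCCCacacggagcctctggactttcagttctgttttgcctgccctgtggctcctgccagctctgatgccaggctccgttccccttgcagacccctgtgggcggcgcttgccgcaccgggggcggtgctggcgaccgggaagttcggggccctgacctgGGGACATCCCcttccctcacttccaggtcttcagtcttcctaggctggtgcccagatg
Tlr3 (chr8:45410331-45410630, minus strand): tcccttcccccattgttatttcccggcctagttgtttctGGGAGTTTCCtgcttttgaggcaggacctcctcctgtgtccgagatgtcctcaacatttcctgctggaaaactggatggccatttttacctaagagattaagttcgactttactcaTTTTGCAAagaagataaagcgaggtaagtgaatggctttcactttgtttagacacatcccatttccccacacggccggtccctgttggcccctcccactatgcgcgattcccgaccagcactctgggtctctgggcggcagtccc
Tlr6 (chr5:64959117-64959416, minus strand): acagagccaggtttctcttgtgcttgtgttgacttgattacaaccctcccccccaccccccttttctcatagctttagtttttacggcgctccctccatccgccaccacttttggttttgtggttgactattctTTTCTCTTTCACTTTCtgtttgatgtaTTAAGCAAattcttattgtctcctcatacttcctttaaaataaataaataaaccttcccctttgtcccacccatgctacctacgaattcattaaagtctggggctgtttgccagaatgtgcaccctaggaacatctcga
Tlr8 (chrX:167264280-167264579, minus strand): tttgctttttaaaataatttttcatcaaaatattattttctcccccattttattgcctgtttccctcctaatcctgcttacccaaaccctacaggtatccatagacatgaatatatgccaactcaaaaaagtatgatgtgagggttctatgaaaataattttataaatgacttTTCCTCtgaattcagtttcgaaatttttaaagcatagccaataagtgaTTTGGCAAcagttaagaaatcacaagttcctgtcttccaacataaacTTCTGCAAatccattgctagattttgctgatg
Tlr13 (chrX:106143025-106143324, plus strand): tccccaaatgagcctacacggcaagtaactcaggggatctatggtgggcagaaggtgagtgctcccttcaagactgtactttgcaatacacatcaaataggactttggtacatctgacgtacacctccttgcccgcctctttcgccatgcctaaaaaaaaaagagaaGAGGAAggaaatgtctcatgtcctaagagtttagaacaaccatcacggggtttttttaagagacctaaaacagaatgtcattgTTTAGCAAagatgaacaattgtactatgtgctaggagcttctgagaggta

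The capitals in Tlr2 are NF-kB matches, a pair that overlap upstream and 1 across the start. Tlr3 has 1 NF-kB match, upstream, and 1 C/EBP match nearer the start. The Tlr6 window holds 2 overlapping ISRE matches and 1 C/EBP match. Tlr8 and Tlr13 have PU.1 and C/EBP matches and none of the NF-kB motif. Among the windows not shown, Tlr9 held 1 AP-1 and 2 PU.1 matches, Tlr1 held 1 PU.1 match at 1 of its 2 starts, and Tlr5 and the other Tlr6 start held no match. Of all 32851 promoter windows of the same length, 4.51% held the NF-kB motif, 3.44% the ISRE motif, 7.81% the AP-1 motif, 28.3% the PU.1 motif and 10.8% the C/EBP motif. A match describes letters in the window and not binding.

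Per unit of gene length, endosomal receptors made up most of the Toll-like receptor RNA of untreated microglia. Levels are given here as the authors' nRPKM, read counts per length and library size, scaled by a size factor, since genes can be compared with each other only per length. In untreated wild type the order was Tlr13 (65.4 and 66.3 nRPKM in the 2 libraries), Tlr7 (30.1 and 30.1), Tlr8 (25.9 and 25.2), Tlr2 (16.7 and 16.6), Tlr4 (9.98 and 9.44), Tlr1 (5.28 and 5.93), Tlr9 (4.43 and 4.27), Tlr6 (2.40 and 2.12) and Tlr3 (2.41 and 2.08). Neighbours in this order did not overlap, apart from Tlr6 and Tlr3, whose libraries did. Tlr13, the receptor gene for a bacterial ribosomal RNA sequence, alone held 40.2% and 40.9% of the summed level of the 10 genes. The 5 endosomal genes together held 78.8% and 78.9%. Tlr1 and Tlr6 levels are understated by unique counting, because 15.4% of the 50-base stretches of Tlr1 transcripts and 12.3% of those of Tlr6 also occur in another gene, mostly in each other. For Tlr3 that share was 5.3%, from the antisense gene Gm45542, which covers 7.32% of its exonic bases. The library kit does not mark strand, so reads of Tlr3 and Gm45542 cannot be told apart there.

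In Cop1 KO the order was nearly kept but for Tlr2, and with LPS it was rebuilt. In the knockout Tlr13 remained first (89.6 and 88.5 nRPKM), and Tlr7 (50.0 and 52.8) overlapped with Tlr2 (50.5 and 50.0), which had moved above Tlr8 (39.1 and 42.4). Tlr9 and Tlr1 also overlapped there. Tlr3 (3.81 and 3.90) lay above Tlr6 (2.90 and 3.05) without overlap, while in untreated wild type these genes overlapped. With LPS the order was Tlr2 (94.5 and 95.6), Tlr7 (87.3 and 92.0), Tlr1 (69 and 72.9), Tlr3 (49.0 and 52.5), Tlr9 (19.9 and 20.5), Tlr8 (16.4 and 17.8), then Tlr6 (13.6 and 15.1) and Tlr13 (13.7 and 15.0), which overlapped, and Tlr4 (4.92 and 5.50). The endosomal share was lower, at 72.7% and 72.8%, in the knockout and lower again with LPS, at 50.6% and 51.1% with LPS, with no overlap between groups. Shares and ratios within a library do not depend on how libraries are scaled to each other. With 2 libraries a group, no exact permutation test of such a share could pass the threshold, and none was made.

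**Figure D1:**
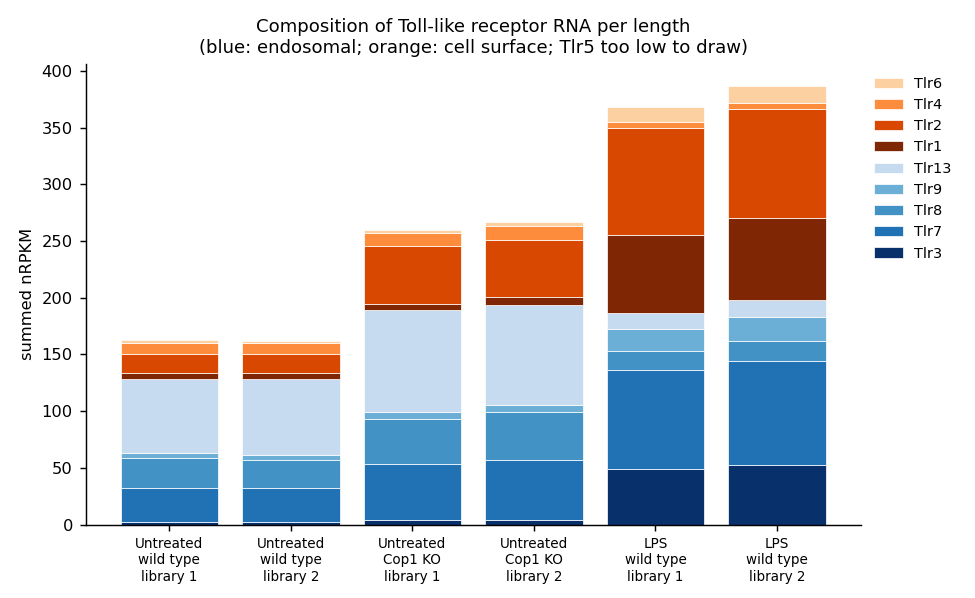
Stacked bars of nRPKM (the authors' RPKM, adjusted by a size factor) of 9 genes in each of the 6 libraries, with endosomal receptors in blue and surface receptors in orange. The endosomal part is 78.8% and 78.9% of the sum in untreated wild type, 72.7% and 72.8% in Cop1 KO and 50.6% and 51.1% with LPS.

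LPS divided the family in wild-type cells. Of the 9 tested genes 6 rose and 3 fell, and all 9 changed by more than the spread between libraries. Over all 15585 genes tested, 30.2% were called higher and 43.4% lower in this comparison (edgeR quasi-likelihood test, adjusted p below 0.05). The median log2 fold change was 2.05 for the members and −0.18 for all genes. At least 2-fold, 6 members rose against 14.9% of all genes, and Tlr4 and Tlr13 fell against 18.2%. The 2-fold counts depended on the scaling, with Tlr4 at 1.89-fold lower by median-of-ratios factors and 1.73-fold in limma on nRPKM plus 1, and with Tlr7 at 1.80-fold higher and Tlr8 at 2.48-fold lower by library size only. Without the first LPS library, Tlr4 was 1.98-fold lower. Each of the 9 directions and calls at an adjusted p below 0.05 held under all 14 alternatives of normalization, filter, tool and left-out library, although library size only called 17.2% of all genes higher and 69.1% lower.

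Among surface receptors, Tlr2 and its partners rose and the LPS receptor gene fell. Tlr1 (Entrez Gene 21897, chromosome 5, 64924680 to 64933600), whose protein pairs with TLR2 to bind triacylated lipopeptides, had 25.9 and 29.1 CPM in untreated wild type and 303 and 319 with LPS. It rose 11.3-fold (log2 fold change 3.50, SE 0.05, adjusted p = 3.2e-50). Tlr6 (chromosome 5, 64953092 to 64970942), its neighbour and the other TLR2 partner, for diacylated lipopeptides, went from 17.4 and 15.3 to 87.9 and 97.4 CPM, a rise of 5.67-fold (2.5, SE 0.07, adjusted p = 2.7e-36). Within a library the Tlr1 level per length was 2.19 and 2.80 times that of Tlr6 in untreated wild type and 5.07 and 4.82 times with LPS. Both LPS libraries thus held more Tlr1 per Tlr6 than either untreated one.

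Tlr2 (Entrez Gene 24088, chromosome 3, 83836272 to 83841824), the shared subunit for bacterial lipoproteins, stood at 75.7 and 75.3 CPM in untreated wild type and at 382 and 386 with LPS (5.08-fold, 2.35, SE 0.04, adjusted p = 1.2e-47). Tlr4 (Entrez Gene 21898, chromosome 4, 66827551 to 66846581), the signalling receptor for LPS, moved the other way, from 56.7 and 53.7 CPM to 25.0 and 27.9. It fell by 1.06 on the log2 scale (SE 0.07, 2.09-fold lower, adjusted p = 5.3e-20). Per length, Tlr2 was at 1.68 and 1.76 times the level of Tlr4 in untreated wild type and at 19.2 and 17.4 times with LPS.

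Endosomal receptors went both ways. Tlr3 (Entrez Gene 142980, chromosome 8, 45395665 to 45411075), which binds double-stranded RNA, had 19.6 and 17.0 CPM in untreated wild type and 356 and 381 with LPS. Its 20.2-fold rise (4.33, SE 0.06, adjusted p = 1.1e-53) was the largest among the 9 genes and took it from place 9 to place 4 in the order per length. Tlr9 (chromosome 9, 106222598 to 106226876), the receptor gene for unmethylated CpG DNA, went from 22.7 and 21.9 to 91.3 and 93.8 CPM (4.15-fold, 2.05, SE 0.06, adjusted p = 8.3e-35). Tlr7 (chromosome X, 167303380 to 167330574), which binds single-stranded RNA, went from 177 in both libraries to 459 and 482 CPM (2.66-fold, 1.41, SE 0.03, adjusted p = 1.1e-38).

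Tlr8 lies beside Tlr7 on the X chromosome (167241123 to 167264329) and is related to it in sequence. Its level was 137 and 133 CPM in untreated wild type and 77.4 and 83.6 with LPS, so it fell where Tlr7 rose (−0.74, SE 0.05, adjusted p = 5.1e-21). The Tlr7 level per length was 1.16 and 1.19 times that of Tlr8 in untreated wild type and 5.31 and 5.17 times with LPS. Tlr13 (Entrez Gene 279572, chromosome X, 106143275 to 106160493) fell from 418 and 424 to 78.4 and 85.3 CPM, 5.15-fold lower (−2.36, SE 0.04, adjusted p = 3.5e-47), and went from place 1 to place 8 in the order. Microglia and macrophage markers in the same comparison had a median of −0.28, with 5 higher and 8 lower of 14, from Spi1 at 1.56 to Cx3cr1 at −3.97, and astrocyte markers had a median of 0.12. Endothelial and mural markers were higher in 5 of 5 tested (median 2.32), with a summed level of 52.0 and 52.2 CPM in untreated wild type and 171 and 172 with LPS, and Cldn5 was at 0. Markers of plasmacytoid dendritic cells, a list that holds genes also expressed elsewhere, were higher in 4 of 5 (median 2.33), summing to 509 and 519 and to 2423 and 2558 CPM, with Klk1 at 0. The part of these markers in the changes was not tested.

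**Figure D2:**
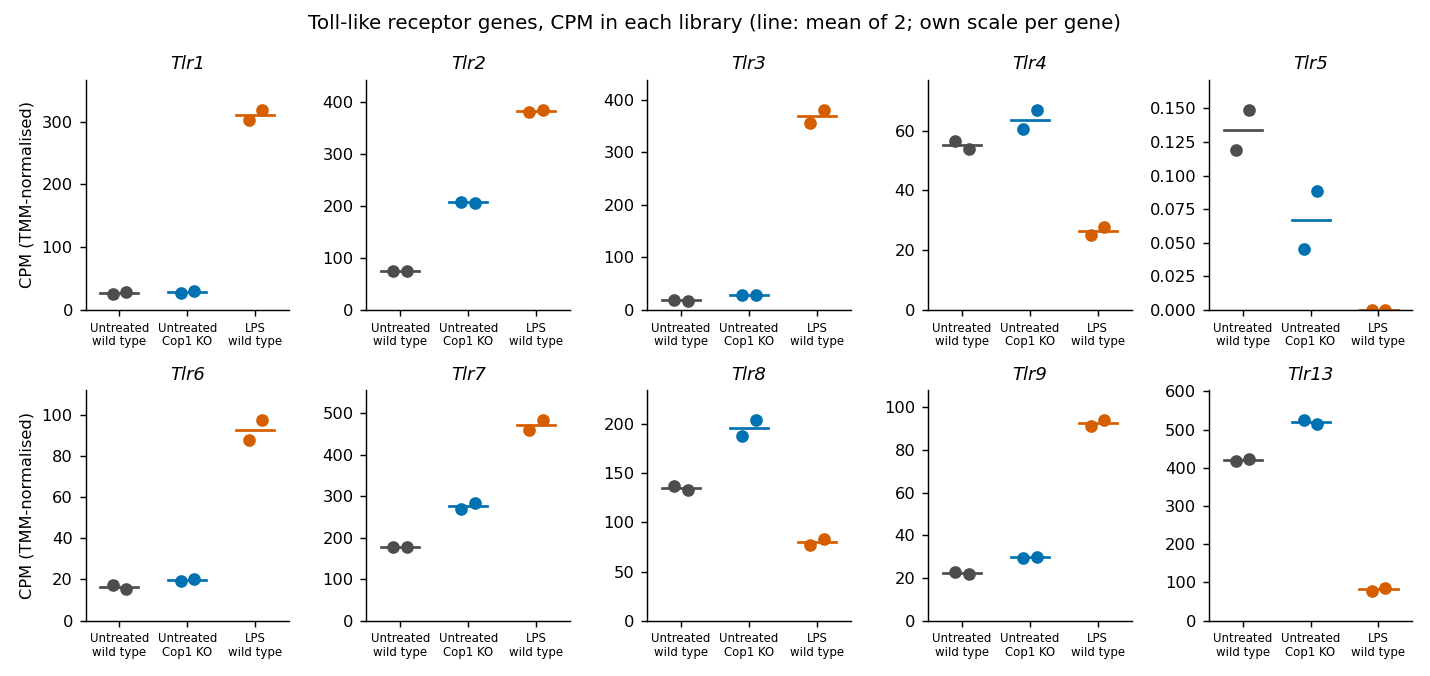
Normalised CPM of each of the 10 genes in each library (points) with the mean of the 2 libraries (lines), on a separate axis from 0 for each gene. With LPS, Tlr1, Tlr2, Tlr3, Tlr6, Tlr7 and Tlr9 are highest and Tlr4, Tlr8 and Tlr13 lowest. In Cop1 KO, Tlr2 (209 and 206 CPM), Tlr3, Tlr6, Tlr7 and Tlr9 lie between the other groups.

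In untreated Cop1 KO cells Tlr2 stood out and most other members rose by less. Of the 9 tested genes 8 rose and 0 fell, with Tlr1 not called, where 28.1% of all genes were called higher and 30.3% lower. The members' median log2 fold change was 0.41, against −0.01 for all genes. Only Tlr2 passed at least 2-fold (3.3% of all genes did so upwards and 14.5% downwards). In the same libraries 12 of 14 microglia and macrophage markers rose and 0 fell, with a median of 0.48, while 10 of 11 markers of astrocytes fell (median −3.83), as did all 9 tested neuron markers (median −4.08). The part of these cell-type differences in the members' values was not tested.

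Tlr2 had 75.7 and 75.3 CPM in untreated wild type and 209 and 206 in Cop1 KO. It rose 2.75-fold (1.46, SE 0.04, adjusted p = 1.1e-36), and its share of the summed Toll-like receptor level per length went from 10.3% in both wild-type libraries to 19.4% and 18.8%. Per length Tlr2 was at 2.18 and 2.07 times the sum of its partners Tlr1 and Tlr6 in untreated wild type, 5.67 and 5.2 times in Cop1 KO and 1.14 and 1.09 times with LPS. Those ratios do not overlap between any groups, and the knockout lay above and LPS below the untreated wild type. Tlr1 was at 27.0 and 29.4 CPM in Cop1 KO, and its libraries overlapped with those of untreated wild type (log2 fold change 0.03, SE 0.06, 95% interval −0.09 to 0.16, adjusted p = 0.69).

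Among endosomal receptors, Tlr3 went from 19.6 and 17.0 to 28.3 and 28.9 CPM (1.57-fold, 0.65, SE 0.07, adjusted p = 8.2e-12) and Tlr7 from 177 in both libraries to 269 and 283 (1.56-fold, 0.64, SE 0.04, adjusted p = 1.9e-22). Tlr8 rose from 137 and 133 to 188 and 204 CPM (1.46-fold, 0.54, SE 0.04, adjusted p = 3e-17), beside Tlr7 and unlike in the LPS libraries. Tlr9 rose 1.33-fold (0.41, SE 0.07, adjusted p = 8.5e-07), from 22.7 and 21.9 to 29.5 and 29.9 CPM. Tlr13 rose 1.24-fold (0.30, SE 0.03, adjusted p = 6.7e-12), from 418 and 424 to 524 and 515 CPM. None of these 5 endosomal genes overlapped between the groups, where 37.9% of all genes were higher without overlap.

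The smallest called increases were those of the other surface receptors. Tlr6 had 19.2 and 20.1 CPM in Cop1 KO against 17.4 and 15.3 (0.27, SE 0.08, adjusted p = 0.0053), and its call was lost without the second untreated wild-type library (adjusted p = 0.15). Tlr4 had 60.4 and 67.0 CPM against 56.7 and 53.7 (0.21, SE 0.06, adjusted p = 0.0017). The Tlr4 call was lost without the second untreated wild-type library (adjusted p = 0.055) or the second Cop1 KO library (adjusted p = 0.1).

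The smaller increases depended on what the libraries were scaled to. TMM factors rest on a trimmed mean of log ratios over the genes tested, so they set each gene against the bulk of genes. The knockout libraries held astrocyte and neuron markers at far lower levels than untreated wild type. The part of that difference in the scaling was not tested. Scaled to a chosen list of 10 leukocyte genes (pan-leukocyte scaling), Tlr2 was still 2.10-fold higher in Cop1 KO (1.07, SE 0.05, adjusted p = 5.8e-87). Tlr3 (0.26, SE 0.07), Tlr7 (0.25, SE 0.04) and Tlr8 (0.15, SE 0.05) also remained called higher. Tlr1 (−0.36, SE 0.07) and Tlr4 (−0.18, SE 0.06) were then called lower, and Tlr6 (−0.12, SE 0.08), Tlr13 (−0.08, SE 0.04) and Tlr9 (0.03, SE 0.07) were not called. That gave 4 members higher and 2 lower, where 7.51% of all genes were called higher and 64.9% lower. This scaling moved the median of all genes by −0.39, and by its construction it moves all genes alike. With TMM factors, Tlr2 stood 1.47 above that median, Tlr13 0.31, Tlr4 0.21 and Tlr1 0.04. With library size only, 6 members were higher and Tlr1 was lower (−0.16, adjusted p = 0.031), against 14.9% and 46.2% of all genes. Median-of-ratios factors called 35.2% of all genes higher and 25.1% lower, limma on nRPKM plus 1 called 35.8% and 20.5%, and both called the same 8 members higher as TMM factors. The scaling genes themselves all rose in Cop1 KO with TMM factors (10 of 10, median 0.45). With LPS they split into 5 higher and 5 lower, from Spi1 at 1.56 to Cyth4 at −0.60, so they were not a stable reference there.

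**Figure D3:**
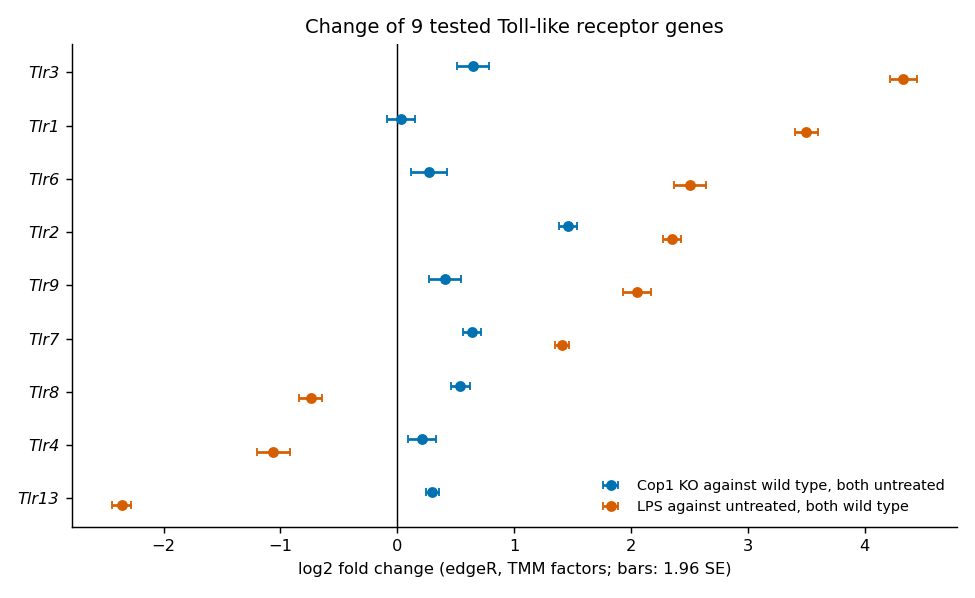
Log2 fold changes of the 9 tested genes (points, bars of 95% intervals from the SE) for Cop1 KO against untreated wild type (blue) and LPS against untreated wild type (orange), both against the same 2 untreated libraries. LPS values run from −2.36 (Tlr13) to 4.33 (Tlr3), and knockout values from 0.03 (Tlr1) to 1.46 (Tlr2).

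**Figure D4:**
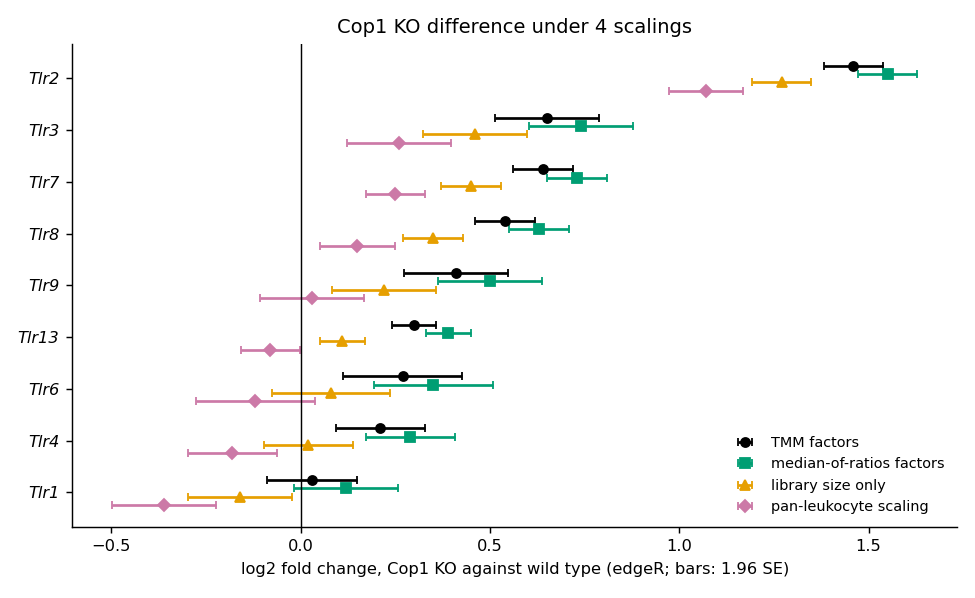
Log2 fold change of Cop1 KO against untreated wild type for the 9 tested genes under 4 scalings of the libraries (points, bars of 95% intervals from the SE). Tlr2 lies above 1 with each of them, while Tlr1, Tlr4, Tlr6 and Tlr13 lie above 0 with TMM factors and below 0 with pan-leukocyte scaling.

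Set directly against LPS-treated wild type, the untreated knockout cells had more RNA of 3 members and less of 6, over a background of 39.9% of genes higher and 39.6% lower. Tlr13 was 6.35-fold higher in Cop1 KO than with LPS (2.67, SE 0.04, adjusted p = 1.3e-49), Tlr8 2.44-fold (1.29, SE 0.05, adjusted p = 7e-32) and Tlr4 2.41-fold (1.27, SE 0.07, adjusted p = 2.4e-23). Tlr3 was 12.9-fold lower (−3.68, SE 0.05), Tlr1 11-fold lower (−3.46, SE 0.05), Tlr6 4.71-fold lower (−2.24, SE 0.07) and Tlr9 3.11-fold lower (−1.64, SE 0.06). The nearest to each other were Tlr2, which was 1.85-fold lower in Cop1 KO (−0.89, SE 0.03), and Tlr7, 1.70-fold lower (−0.77, SE 0.03). Every one of these 9 directions and calls held under all 14 alternatives, with 54.3% of all genes higher and 29.9% lower by library size only.

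Other genes of the pathway were counted against the same backgrounds, 28.1% of all genes higher and 30.3% lower in Cop1 KO and 30.2% and 43.4% with LPS. Of 12 genes that fold, transport and process the receptors, 9 rose and 2 fell in Cop1 KO (median 0.37), and 3 rose and 9 fell with LPS (median −0.47). The knockout median was below that of the microglia and macrophage markers (0.48), and with pan-leukocyte scaling 4 of the 12 were higher and 6 lower (median −0.02). Unc93b1, the chaperone that carries endosomal receptors out of the endoplasmic reticulum, rose in both comparisons. It had 444 and 439 CPM in untreated wild type, 887 and 837 in Cop1 KO (0.97, SE 0.03, adjusted p = 7.5e-33) and 897 and 866 with LPS (1.0, SE 0.03, adjusted p = 3.6e-34). With TMM factors the direct contrast gave −0.03 (SE 0.03, adjusted p = 0.33). This near equality depends on the scaling, since library size only moved the median of all genes in that contrast by 0.37 and pan-leukocyte scaling by −0.19. Lrrc59, which assists the same export, fell by 0.21 (SE 0.04) in the knockout and rose 2.20-fold with LPS (1.14, SE 0.03). The endolysosomal proteases Ctsb and Ctss, of a class that cleaves the endosomal receptors, rose in the knockout (0.52, SE 0.02 and 0.59, SE 0.02). With TMM factors they fell with LPS (−0.37, SE 0.02 and −0.11, SE 0.02). The fall of Ctss depended on the scaling. Its nRPKM was higher with LPS (1616 and 1608) than in untreated wild type (1555 and 1561).

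Of 5 tested co-receptor and accessory genes, 2 rose and 1 fell in Cop1 KO (median 0.27), a share near that of all genes, and 4 rose and 1 fell with LPS (median 0.81). With pan-leukocyte scaling the knockout counts were 2 higher and 2 lower (median −0.12). With library size only, the LPS counts were 2 higher and 1 lower (median 0.25), where 17.2% of all genes were called higher and 69.1% lower. Cd14, which hands LPS to TLR4 and assists TLR2, had 422 and 415 CPM in untreated wild type, 829 and 814 in Cop1 KO and 1546 and 1516 with LPS (1.87, SE 0.03, adjusted p = 3.5e-48). Ly96, whose product MD-2 completes the TLR4 receptor, was far lower, at 7.66 and 6.33, 8.10 and 8.69, and 12.6 and 11.9 CPM. With TMM factors it rose with LPS (0.81, SE 0.12, adjusted p = 7.4e-08), opposite to Tlr4, and was not called in the knockout (0.27, SE 0.13, adjusted p = 0.066). Cd180, a TLR4 relative of B cells and macrophages, rose 2.95-fold with LPS (1.56, SE 0.03), and in the knockout it stood at 0.07 (SE 0.04, adjusted p = 0.068). Its partner Ly86 rose in both with TMM factors (0.62, SE 0.04 and 0.56, SE 0.04). The LPS rises of Ly86 and Ly96 depended on the scaling. Library size only moved the median of all genes by −0.56 with LPS, and these were the 2 genes then not called. Cd36, a scavenger receptor that assists TLR2 with TLR6, fell in both, by 0.95 (SE 0.03) in Cop1 KO and by 0.41 (SE 0.03) with LPS.

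Downstream, 13 of 18 adaptor, kinase and interferon regulatory factor genes rose in Cop1 KO and 0 fell (median 0.32), and 9 rose and 4 fell with LPS (median 0.22). Most of the knockout calls depended on the scaling: scaled to the pan-leukocyte genes, 4 of the 18 were higher and 8 lower (median −0.06). The LPS counts moved too, to 9 higher and 9 lower with that scaling (median 0.02). With library size only they were 8 higher and 9 lower (median −0.34). Myd88 had 55.3 and 54.1 CPM in untreated wild type, 83.2 and 82.3 in Cop1 KO (0.60, SE 0.04) and 357 and 348 with LPS (6.45-fold, 2.69, SE 0.04, adjusted p = 6.3e-49). Ticam1, the TLR3 and TLR4 adaptor gene, rose 2.14-fold with LPS (1.10, SE 0.06, adjusted p = 3.1e-22) and was at 0.13 (SE 0.07, adjusted p = 0.1) in the knockout. Irak2 and Ikbke, kinase genes of the 2 branches, rose by 2.19 (SE 0.04) and 3.71 (SE 0.04) with LPS and by 0.61 (SE 0.04) and 0.76 (SE 0.04) in Cop1 KO. Irf7, the interferon factor downstream of TLR7 and TLR9, had 40.4 and 41.7 CPM in untreated wild type, 215 and 218 in Cop1 KO and 2354 and 2233 with LPS.

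Of 11 tested inhibitors of the pathway, 4 rose and 3 fell in Cop1 KO (median 0.10), and 6 rose and 4 fell with LPS (median 0.59). The knockout counts and the 4 lower with LPS are near the shares of all genes. With pan-leukocyte scaling 2 were higher and 9 lower in the knockout (median −0.29). With library size only, the LPS counts were 5 higher and 5 lower (median 0.03). Irak3, a kinase-inactive brake on MYD88 signalling, rose in both (0.76, SE 0.08 and 1.76, SE 0.07). Nfkbia had the largest rise of the 11 in both comparisons (0.89, SE 0.04 in Cop1 KO and 4.42, SE 0.04 with LPS). Tnfaip3, the ubiquitin-editing inhibitor A20, rose 12.7-fold with LPS (3.66, SE 0.04) and fell by 0.22 (SE 0.04) in the knockout. Tollip, an adaptor that restrains receptor signalling, fell in both (−0.24, SE 0.04 and −0.48, SE 0.05).

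Measured by the distance between their pairs of log2 fold changes (knockout and LPS, each against the same untreated libraries), no 2 members lay close to each other. The nearest pair was Tlr4 and Tlr8 at 0.461, followed by Tlr6 and Tlr9 at 0.474, while Tlr13 was 1.3 from its nearest, Tlr4. Among 10387 named genes averaging 5 CPM or more, the nearest to Tlr2 were Bst2 (distance 0.018), Gda (0.0836) and Niban1 (0.125). Those nearest to Tlr3 were Ebi3 (0.0705), Cp (0.0913) and Tmem171 (0.14), and those nearest to Tlr13 were Lmln (0.00967), Maml3 (0.0107) and Vmac (0.035). Within a distance of 0.1, Tlr4 had 62 other genes and Tlr1 had 1. The measure rests on 6 libraries in 3 groups.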

How the data were processed

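The counts deposited by the authors give, per the file headers, how many reads aligned uniquely per gene model. The second deposited value, nRPKM, is RPKM adjusted by a size factor, per the file headers. How that factor was made is not given in the sources used here. Reads were aligned with GSNAP to GRCm38, per the submitters' processing notes, and came from a TruSeq v2 kit as single reads of 50 bases, per the labels' protocols. Of 36528 identifiers, 31049 took a symbol from RefSeq and 5402 had none (1.072% to 1.304% of counts).

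All 6 libraries entered 1 edgeR 4.0.16 quasi-likelihood fit (R 4.3.3) of raw counts with group means, TMM factors and filterByExpr, giving 15585 genes, 3 residual degrees of freedom and a biological coefficient of variation of 2.7%. Genes were called at a Benjamini-Hochberg adjusted p below 0.05 over all genes tested. CPM uses TMM factors (1.192 and 1.190 untreated, 1.042 and 1.042 Cop1 KO, 0.806 and 0.806 LPS). SE comes from the fit's weights. The procedure was tested on simulated data. Those held no broad difference in composition between the groups, so the test does not bear on the choice of scaling. Alternatives used limma 3.58.1, DESeq2 1.42.0, other scalings, no filter, 2 groups only and single libraries left out.

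The members and lists were chosen with earlier results of these data known. Named are all members, Cop1, Unc93b1, Cd14, Ly96, Myd88, Ticam1, up to 3 called genes with the smallest p per pathway list and comparison (not all of them printed), and the 3 genes nearest a member in both fold changes. Marker lists beside those in the results were fibroblasts (5 higher and 1 lower of 6 tested in Cop1 KO), endothelial and mural cells (4 and 0 of 5), oligodendrocyte lineage (1 and 6 of 8), plasmacytoid dendritic cells (3 and 1 of 5), neutrophils (1 and 0 of 1) and B lymphocytes (0 tested).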

Additional observations from a re-analysis of the deposited data

How the results depend on the processing

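In the LPS comparison and in the direct contrast of Cop1 KO with LPS, each of the 9 tested members kept its direction and call under all 14 alternatives, and the counts of 6 higher and 3 lower, and of 3 higher and 6 lower, did not move. In the knockout comparison, 113 of 126 member values kept direction and call. The 8 members higher there became 4 with pan-leukocyte scaling and 6 to 8 when a library was left out, and the 0 lower became 2 with pan-leukocyte scaling and 1 with library size only. Directions reversed for Tlr1 with library size only (−0.16), without untreated wild-type replicate 1 (−0.05) and without Cop1 KO replicate 2 (−0.03), the last pair not called, and, with pan-leukocyte scaling, for Tlr1 (−0.36), Tlr4 (−0.18), Tlr6 (−0.12) and Tlr13 (−0.08). Calls were lost for Tlr4 (0.02) and Tlr6 (0.08) with library size only and for Tlr9 (0.03) with pan-leukocyte scaling. Library size only moved the median of all genes by −0.19 (knockout) and −0.56 (LPS). In the LPS comparison, pan-leukocyte scaling moved that median by −0.20, and median-of-ratios factors, DESeq2, limma and the fit of 2 groups moved it by 0.14 to 0.17. For the endosomal shares, leaving out a library only returns the share already given for the other library of its group, so it is no further check. No paired analysis was possible because the labels give no replicate numbers. Depth limited only Tlr5: with no low-count filter it was not called in the knockout (adjusted p = 0.65) or with LPS (0.12).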

Other observations

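The mouse family has 2 more receptor genes, which were outside the 10 described above. Tlr11 had 0 and 4 counts in untreated wild type, 1 and 5 in Cop1 KO and 11 and 14 with LPS. Tlr12 had 0 and 5, 3 and 0, and 27 and 14 counts in the same order. Both passed the low-count filter only through the LPS libraries, so no test of them is given. These receptors bind the parasite protein profilin in mice.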
